A study of Homo sapiens with 12 samples.

Results

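The 10 genes described here encode subunits of the SWI/SNF (BAF) chromatin remodelling complexes. They were chosen by symbol, with earlier results of these data known: SMARCA4, SMARCA2, SMARCB1, SMARCC1, ARID1A, ARID1B, ACTL6A, ACTL6B, DPF1 and DPF2. All 10 were found among the 28813 genes of the authors' normalized table, and all 10 were among the 15024 genes that passed the low-count filter of the test used here. They were measured by sequencing of polyA-captured RNA from MKL-1, a cell line established from a Merkel cell carcinoma, a neuroendocrine skin cancer, and positive for Merkel cell polyomavirus. The 4 groups, of 3 libraries each, were MKL-1 cells given 3 µM EPZ011989, an inhibitor of the histone methyltransferase EZH2, or vehicle for 6 days, and the same pair of treatments for 12 days. All 12 cultures contained 1% ethanol, the vehicle, in RPMI with 10% serum, and were split with fresh medium every 3 days. The study used a single cell line, and the labels do not say that libraries of a group came from separate cultures, so the p-values describe only how far these libraries vary, and that variation may be technical.

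SWI/SNF complexes use the energy of ATP to move and evict nucleosomes, and they are known to oppose the Polycomb repression that EZH2 lays down. Each complex carries one of the ATPases SMARCA4 (BRG1) or SMARCA2 (BRM), core subunits such as SMARCC1 and an actin-like protein. Several classes, but not all, also carry SMARCB1, an ARID subunit that helps define the class, and a PHD-finger protein. When neural progenitors leave the cell cycle, ACTL6A, PHF10 or DPF2, and SS18 are known to give way to ACTL6B, DPF1 or DPF3, and SS18L1. SMARCA4 with SMARCA2 and ARID1A with ARID1B are alternative subunits that are not strictly progenitor or neuronal forms, and are set side by side here in the same way.

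Promoter windows of RefSeq (GRCh38.p14), from 250 bases before to 50 bases after an annotated start, were held for 8 of the 10 genes, in 13 windows. None was held for SMARCC1 or ACTL6A, so the searches below do not cover them. The 4 windows below show SMARCA4 and ARID1A, an ATPase and an ARID gene among those lower under EPZ011989 on both days, beside the neuronal forms ACTL6B and DPF1, which were not called at either day. They are written 5′ to 3′ on the gene's own strand, and the capitals mark letters of an E2F-type site.
SMARCA4, chr19:10960780-10961079, plus strand: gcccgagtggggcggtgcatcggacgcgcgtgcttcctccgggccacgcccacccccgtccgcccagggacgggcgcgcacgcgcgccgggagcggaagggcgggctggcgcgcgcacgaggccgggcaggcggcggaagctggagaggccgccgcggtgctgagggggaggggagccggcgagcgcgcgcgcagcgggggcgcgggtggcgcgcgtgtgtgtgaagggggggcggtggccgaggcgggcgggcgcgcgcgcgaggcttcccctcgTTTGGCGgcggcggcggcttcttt
ARID1A, chr1:26695765-26696064, plus strand: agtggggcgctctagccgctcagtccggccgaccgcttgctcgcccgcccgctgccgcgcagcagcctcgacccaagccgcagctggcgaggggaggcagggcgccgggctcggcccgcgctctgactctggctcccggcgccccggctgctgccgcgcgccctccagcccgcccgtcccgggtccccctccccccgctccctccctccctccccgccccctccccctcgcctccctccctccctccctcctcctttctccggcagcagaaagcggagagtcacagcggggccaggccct
ACTL6B, chr7:100656399-100656698, minus strand: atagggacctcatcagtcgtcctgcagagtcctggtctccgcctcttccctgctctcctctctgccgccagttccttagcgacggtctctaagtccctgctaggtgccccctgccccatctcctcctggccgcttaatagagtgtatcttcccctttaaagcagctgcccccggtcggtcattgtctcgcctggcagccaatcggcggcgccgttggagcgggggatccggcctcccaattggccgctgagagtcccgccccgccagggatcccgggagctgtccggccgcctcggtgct
DPF1, chr19:38229646-38229945, minus strand: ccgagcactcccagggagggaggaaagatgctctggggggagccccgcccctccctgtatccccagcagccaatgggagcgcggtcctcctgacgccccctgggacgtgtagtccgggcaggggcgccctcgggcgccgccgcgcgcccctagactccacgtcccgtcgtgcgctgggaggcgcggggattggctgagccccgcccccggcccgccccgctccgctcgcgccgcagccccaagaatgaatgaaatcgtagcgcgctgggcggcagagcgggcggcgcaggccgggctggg

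The SMARCA4 window shown holds 55 CG dinucleotides, more than 99.6% of the 35116 windows of the same length, whose median is 14. A second SMARCA4 window, chr19:10983874-10984173, holds 5. The DPF1 window holds 36, the ARID1A window 33 and the ACTL6B window 22. E2F-type letters were searched as TTTGGCG or TTTCCCG on both strands, and 6.06% of all windows hold either. They occur in the SMARCA4 window shown and in 1 of 4 SMARCA2 windows, chr9:2157412-2157711, which lies at a start inside the gene. Letters of the REST site, whose factor keeps neuronal genes silent in other cells, were searched as TTCAGCACC or GGACAGCG on both strands. They occur in 1.98% of all windows and in none of the 13. The searched letters do not overlap one another, and a match is a description of these letters only.

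Library depth was 15994997 to 20866370 estimated reads, so that 3 reads correspond to 0.148 to 0.194 CPM (counts scaled to library size). The levels of single genes given as CPM are reads summed per gene and scaled by TMM. The CPM of 3 reads, and the marker sums and the 1 CPM mark below, were scaled by library totals alone. The authors' normalized values also take transcript length into account. Levels of different genes are compared only in TPM, a unit of transcripts that corrects for length. All 11 Merkel cell carcinoma markers reached 1 CPM or more in each group, with a summed level of 2686 to 3239 CPM. KRT20 enters this sum with only part of its reads, which reach 0.314 of its level in the authors' table. That sum was 3154 to 3239 CPM in day 6 vehicle and 2759 to 2804 CPM under EPZ011989, without overlap. At day 12 it was 2686 to 3126 CPM in vehicle and 2797 to 3014 CPM under EPZ011989. The other cell types' markers were low and also moved with the groups. The part of any of these markers in the results was not tested. The 6 leukocyte markers summed to 9.74 to 10.5 CPM in day 6 vehicle and 2.45 to 3.30 CPM under EPZ011989. At day 12 they summed to 3.86 to 5.56 CPM in vehicle, with CD3E at 0, and to 0.753 to 1.19 CPM under EPZ011989, with PTPRC at 0. The 4 endothelial markers summed to 0.417 to 1.28 and 0.580 to 1.55 CPM at day 6 and to 0.320 to 0.713 and 1.85 to 2.69 CPM at day 12, in vehicle and EPZ011989, with KDR at 0 in both day 12 groups. The 6 fibroblast markers summed to 14.7 to 19.6 and 21.9 to 30.0 CPM at day 6 and to 9.59 to 14.02 and 18.3 to 19.98 CPM at day 12, in the same order, with LUM at 0 in day 12 vehicle. Most of that sum was DCN, with TMM-scaled means of 11.9 and 18.8 CPM at day 6 and 10.7 and 13.5 CPM at day 12. Of the 6 markers, 3 reached 1 CPM in each day 6 group, 1 in day 12 vehicle and 2 under EPZ011989 at day 12. The first principal component, with 61.1% of the variance, separated treated from vehicle libraries and also the treated libraries of the 2 days. Vehicle libraries lay at -58.4 to -51.3, treated day 6 libraries at 7.90 to 8.55 and treated day 12 libraries at 94.7 to 100. On the third component the day 12 vehicle library with replicate number 1 lay away from its group, at -51.4 against -14.0 for the nearest other, and results that rest on it are given without it as well.

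At day 6, 4 of the 10 genes were lower under EPZ011989 and 0 were higher (edgeR quasi-likelihood test, Benjamini-Hochberg adjusted p under 0.05). In that comparison 34.2% of all tested genes were called, 17.0% lower and 17.1% higher. At day 12, 5 of the 10 were lower and 0 were higher, where 66.9% of all genes were called, 33.2% lower and 33.7% higher. The genes lower on both days were SMARCA4, SMARCC1, ARID1A and ARID1B, and ACTL6A joined them at day 12. SMARCB1 enters these counts only through part of its reads, as described below. The median log2 fold change of the 10 was -0.11 at day 6 and -0.14 at day 12, against -0.02 and 0.02 for all tested genes. The treatment effect itself differed between the days for 2 of the 10, SMARCC1 and ACTL6A, both with a lower value at day 12, where 47.7% of all genes were called, 25.1% lower and 22.6% higher. In bulk RNA, fewer cells of a type and less RNA per cell cannot be told apart.

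The proliferation list moved with these groups. Of its 20 genes 17 were lower at day 6, with a median log2 fold change of -0.30, and all 20 were lower at day 12, with a median of -2.06. Among all tested genes 17.0% were called lower at day 6 and 33.2% at day 12. RRM2 enters this list with only part of its reads, which reach 0.337 of its level in the authors' table. MKI67, a marker of cycling cells, fell by 2.35 on the log2 scale at day 12, and EZH2, the target of the inhibitor, fell by 1.54. The part of this change in the SWI/SNF results was not tested.

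**Figure D1:**
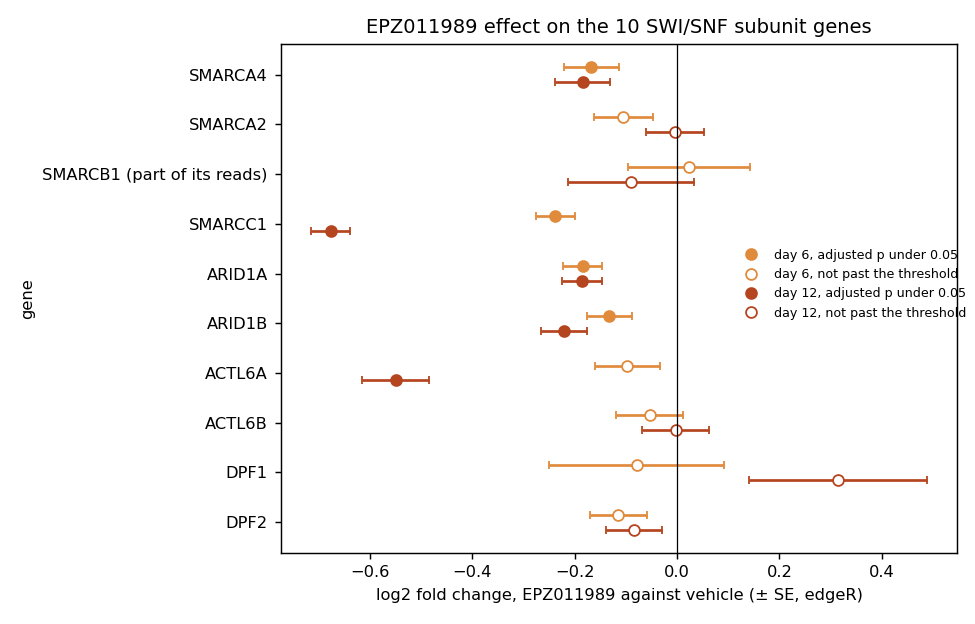
Log2 fold change of EPZ011989 against vehicle (x axis, ± SE, edgeR) for each of the 10 genes (y axis) at day 6 and day 12, with filled points where the adjusted p was under 0.05. SMARCC1 and ACTL6A lie farthest to the left at day 12, at -0.68 and -0.55, and the points of SMARCA2, SMARCB1, ACTL6B, DPF1 and DPF2 are open on both days. SMARCB1 is drawn from part of its reads.

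SMARCC1 (BAF155), a scaffold subunit around which the complexes assemble, showed the largest fall of the 10. In the authors' table its values were 7228, 6904 and 7270.4 in the day 6 vehicle libraries and 6249.7, 5788 and 6117 under EPZ011989. At day 12 they were 7459, 7693 and 7166 in vehicle and 5044, 4709 and 4346 under EPZ011989. Every treated library lay below every vehicle library of its day, and the day 12 treated libraries were the lowest 3 of the 12. In CPM the level went from 406 ± 9.85 to 344 ± 7.21 (SD, n = 3) at day 6 and from 412 ± 15.6 to 258 ± 4.53 at day 12. The log2 fold change was -0.24 ± 0.04 (SE, edgeR adjusted p = 2.29e-04) at day 6 and -0.68 ± 0.04 (edgeR adjusted p = 9e-10) at day 12. The effect at day 12 minus that at day 6 was -0.44 ± 0.05 (edgeR adjusted p = 1.18e-05). Without replicate 1 of the day 12 vehicle group the day 12 value was -0.65. SMARCC1 lies on chromosome 3 (47585272 to 47782106, minus strand, GRCh38), and 87.0% of its reads were assigned to a single coding transcript, SMARCC1-201.

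SMARCB1 (SNF5), the core subunit lost in rhabdoid tumours, has to be read from the authors' table. The reads that could be assigned to it by transcript identifier reach only 0.141 of its level there, against 0.939 to 1.005 for the other 9 genes, so its CPM values cover a part of its reads. In the authors' table it stood at 2351, 2417 and 2268 in day 6 vehicle and at 2244, 2384 and 2289 under EPZ011989, and these ranges overlap. At day 12 it stood at 2025, 2562 and 2284 in vehicle and at 1846, 1816 and 1885 under EPZ011989, where all 3 treated libraries lay below all 3 vehicle libraries. The day 12 vehicle libraries spread more widely (SD 268, n = 3) than those of the other groups (SD 34.2 to 74.5). On the log2(value + 1) scale, the day 12 change was -0.30 ± 0.08 (limma adjusted p = 0.00308) and the day 6 change -0.02 ± 0.08 (limma adjusted p = 0.843). In that table limma called 63.3% of all genes at day 12, with 32.4% lower, and 26.1% at day 6. Of the 10 genes it called 6 at day 12, all lower. The change between the days in the effect was -0.28 ± 0.11 and missed the threshold (limma adjusted p = 0.0514), where 40.4% of all genes passed it. Without replicate 1 of the day 12 vehicle group the day 12 change was -0.39 (limma adjusted p = 2.11e-04) and the difference between the days, at -0.36, passed (limma adjusted p = 0.00559). The part of its reads that was summed gave a day 12 change of -0.09 (edgeR adjusted p = 0.535). The fall was thus seen in the authors' table only. Most of the summed part lay on transcripts with a retained intron, 58.7% and 71.3% at day 6 in vehicle and EPZ011989. At day 12 these held 85.0% and 77.4%, so the summed part cannot decide whether the whole gene fell. The gene lies on chromosome 22 (23786931 to 23838008).

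SMARCA4, the ATPase that dominates in dividing cells, was lower by a small and similar amount on both days. Its authors' values were 8881, 8662 and 8872 in day 6 vehicle and 7830.2, 7608 and 7671 under EPZ011989. At day 12 they were 8551, 7731 and 8432 in vehicle and 7323, 7010.5 and 7248 under EPZ011989. The groups did not overlap on either day. The log2 fold change was -0.17 ± 0.05 (edgeR adjusted p = 0.0264) at day 6 and -0.18 ± 0.05 (edgeR adjusted p = 0.00742) at day 12, and the effects of the days differed by -0.02 ± 0.08 (edgeR adjusted p = 0.873). Both calls ended when libraries were scaled by their totals instead of TMM, with -0.13 (edgeR adjusted p = 0.0946) and -0.12 (edgeR adjusted p = 0.0937). The day 6 call also ended under the stricter low-count filter, without any 1 of the 6 day 6 libraries, and without replicate 1 or 2 of the treated day 12 group. In CPM, replicate 1 of the day 12 vehicle group was the low one of its group, at 402 against 451 and 488, and without it the day 12 change was -0.26 (edgeR adjusted p = 3.35e-05).

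SMARCA2, the second ATPase, which is known to be prominent in resting and differentiated cells, was not called at either day. Its CPM was 83.7 ± 3.23 in day 6 vehicle, 77.8 ± 2.22 under EPZ011989 at day 6, 89.1 ± 2.56 in day 12 vehicle and 88.8 ± 5.72 under EPZ011989 at day 12 (SD, n = 3). The log2 fold changes were -0.11 ± 0.06 (edgeR adjusted p = 0.179) and -0.0042 ± 0.06 (edgeR adjusted p = 0.953). Its authors' values were 1444, 1365 and 1187 in day 6 vehicle, 2041, 1103 and 1369 under EPZ011989 at day 6, 1948, 1553 and 1569 in day 12 vehicle and 1536, 1522 and 1755 under EPZ011989 at day 12. The groups overlap on both days, and replicate 1 of the treated day 6 group is the highest of the 12 there. Its CPM of 79.9 is near the 75.5 and 78.0 of the others of its group. That library's mean effective transcript length for SMARCA2 was 3233 bases against 5611 and 4669 in the others of the group. The sign of the day 6 change follows the measure, at 0.13 in the authors' table. SMARCA2 also has a short form from a start inside the gene, and transcripts from there held 0 to 8.34% of its reads per library.

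The ARID subunits ARID1A and ARID1B, which carry the DNA-binding domain of the canonical BAF complex and are mutually exclusive in it, were both lower on both days. For ARID1A the CPM was 243, 247 and 247 in day 6 vehicle and 216, 208 and 225 under EPZ011989, and at day 12 it was 236, 228 and 234 in vehicle and 207, 208 and 199 under EPZ011989. No treated library reached a vehicle library of its day. The log2 fold change was -0.18 ± 0.04 (edgeR adjusted p = 0.00195) at day 6 and -0.19 ± 0.04 (edgeR adjusted p = 6.72e-04) at day 12. In the authors' table the 3 values were 4027, 4499.7 and 4216 against 3799.5, 3421 and 4209 at day 6, where the groups overlap and the call ended (limma adjusted p = 0.477). At day 12 they were 6361, 3711 and 3935 against 3638, 3563 and 3343, without overlap, with a log2 change of -0.37 (limma adjusted p = 0.0496). The value of 6361 belongs to replicate 1 of the day 12 vehicle group, where the mean effective length of ARID1A transcripts was 4020 bases against 6651 and 6538 in the other libraries of that group. Without that library the day 12 change in the authors' table was -0.12 and the call ended (limma adjusted p = 0.213), while in summed reads it was -0.18 (edgeR adjusted p = 0.00134). The share of ARID1A reads on ARID1A-212, one of the main coding transcripts beside ARID1A-201, was 50.6% in that library and 23.2 to 42.8% in the other 11.

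For ARID1B, the CPM went from 233 ± 7.19 to 212 ± 4.68 (SD, n = 3) at day 6 and from 229.7 ± 12.6 to 197 ± 3.31 at day 12. Its authors' values were 4411, 4376 and 4641 in day 6 vehicle and 3737, 4039.7 and 4091 under EPZ011989. At day 12 they were 4466, 4406 and 4376 in vehicle and 3842, 3508 and 3836 under EPZ011989. The groups were separate on both days in both measures. The log2 fold change was -0.13 ± 0.04 (edgeR adjusted p = 0.0335) at day 6 and -0.22 ± 0.04 (edgeR adjusted p = 5.25e-04) at day 12. The day 6 call ended under scaling by library totals (edgeR adjusted p = 0.0805), under both other low-count filters without any 1 of the 6 day 6 libraries, and without replicate 1 or 2 of the treated day 12 group. The effects of the days differed by -0.09 ± 0.06 and missed the threshold (edgeR adjusted p = 0.269).

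**Figure D2:**
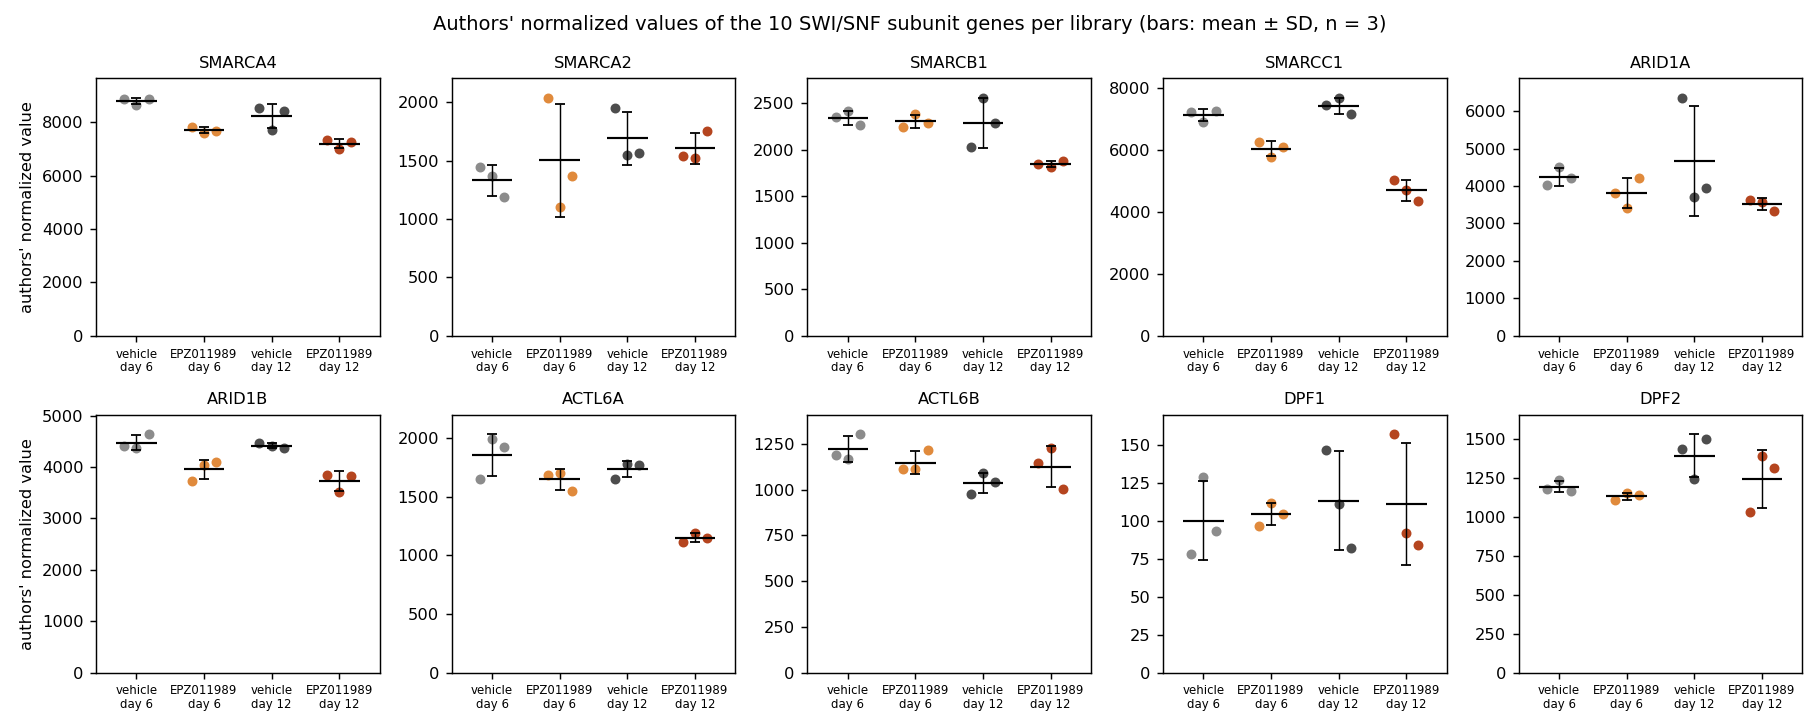
Authors' normalized value (y axis, from 0) of each of the 10 genes in every library of the 4 groups (x axis), with the mean ± SD of 3 libraries. SMARCC1 and ACTL6A under EPZ011989 at day 12 lie clear of all other libraries, SMARCB1 likewise lies at 1816 to 1885 there, and single libraries of ARID1A (6361) and SMARCA2 (2041) lie far above their groups.

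**Figure D3:**
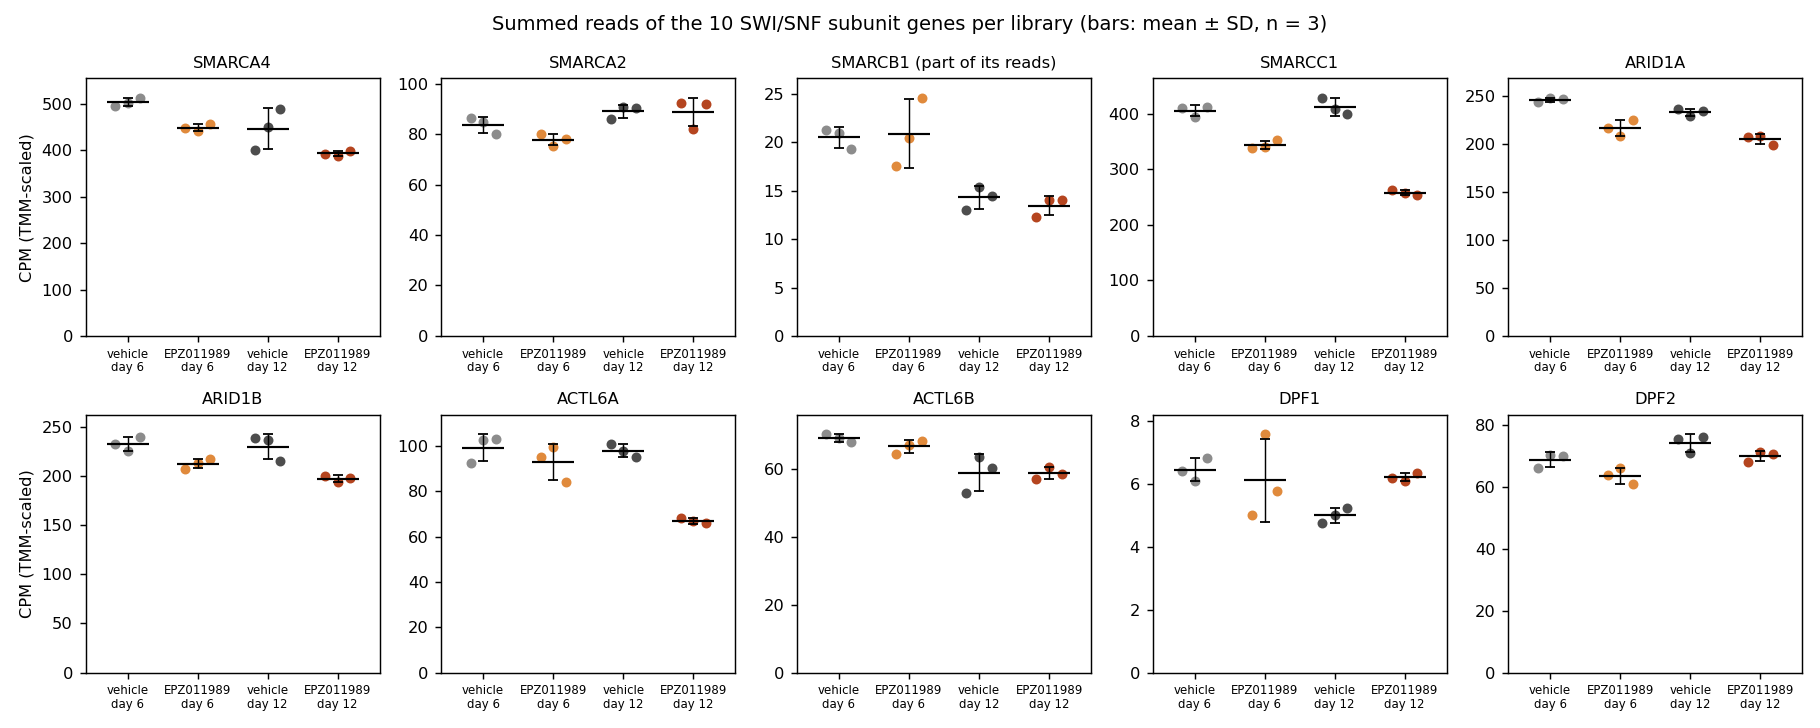
CPM of summed reads (y axis, from 0) for the same genes and libraries, with the mean ± SD of 3 libraries. The single high libraries of ARID1A and SMARCA2 are not seen on this scale, at 236 and 79.9 CPM, and SMARCB1 rests on part of its reads.

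ACTL6A (BAF53a), the actin-like subunit of progenitor complexes and also a subunit of the INO80, SRCAP and TIP60 complexes, fell late. Its authors' values were 1656, 1993 and 1924 in day 6 vehicle and 1691, 1707 and 1550.0 under EPZ011989, and these overlap. At day 12 they were 1656, 1782 and 1773 in vehicle and 1111, 1191 and 1153 under EPZ011989, the lowest 3 of the 12. In CPM the day 12 level went from 98.0 ± 2.80 to 66.9 ± 1.13 (SD, n = 3). The log2 fold change was -0.10 ± 0.06 (edgeR adjusted p = 0.271) at day 6 and -0.55 ± 0.06 (edgeR adjusted p = 3.1e-06) at day 12, and the difference between the days was -0.45 ± 0.09 (edgeR adjusted p = 9.14e-04). ACTL6A lies on chromosome 3 (179562880 to 179588408, plus strand). Of 19 further subunits of INO80, TIP60 and SRCAP complexes, 4 were higher and 6 lower at day 12, with a median log2 fold change of -0.03, and 0 were higher and 3 lower at day 6, with a median of -0.07. These counts stand beside 66.9% of all tested genes called at day 12 and 34.2% at day 6.

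ACTL6B (BAF53b), the actin-like subunit of neuronal complexes, was well expressed in all 4 groups and was not called for treatment at either day. Its authors' values were 1190.3, 1168 and 1302 in day 6 vehicle, 1110.4, 1112 and 1219 under EPZ011989 at day 6, 978, 1088 and 1039 in day 12 vehicle, and 1143, 1227 and 1004 under EPZ011989 at day 12. The treated and vehicle libraries overlap on both days. The log2 fold change was -0.05 ± 0.07 (edgeR adjusted p = 0.573) at day 6 and -0.0027 ± 0.07 (edgeR adjusted p = 0.973) at day 12, and in the authors' table the day 12 value was 0.12 ± 0.09 (limma adjusted p = 0.257). The coding transcript ACTL6B-201 held 85.7 to 90.3% of the reads in the 9 libraries of the other groups and 76.8, 76.6 and 84.0% under EPZ011989 at day 12. Transcripts with a retained intron held 20.9% ± 4.2 (SD, n = 3) in that group and 12.3% ± 2.5 in day 12 vehicle. The 3 treated libraries were below all others in that share of ACTL6B-201, which was not tested. ACTL6B lies on chromosome 7 (100643097 to 100656461, minus strand).

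DPF2, the PHD-finger subunit of widely expressed BAF complexes, and DPF1, its neuronal relative, were not called for treatment at either day. DPF2 stood at 68.9 ± 2.32 and 63.7 ± 2.53 CPM in vehicle and EPZ011989 at day 6 and at 74.3 ± 2.83 and 70.1 ± 1.70 CPM at day 12 (SD, n = 3). Its log2 fold changes were -0.11 ± 0.06 (edgeR adjusted p = 0.129) and -0.08 ± 0.06 (edgeR adjusted p = 0.195). DPF1 was the lowest of the 10, with CPM of 6.41, 6.08 and 6.81 in day 6 vehicle, 5.00, 7.57 and 5.77 under EPZ011989 at day 6, 4.76, 4.99 and 5.22 in day 12 vehicle and 6.19, 6.08 and 6.35 under EPZ011989 at day 12. The day 12 groups do not overlap in CPM, and the change of 0.31 ± 0.17 missed the threshold (edgeR adjusted p = 0.123). In the authors' table the day 12 values were 147, 112 and 82.3 in vehicle and 157, 92.0 and 84.4 under EPZ011989, which overlap, and the change was -0.05, or 0.16 without replicate 1 of the day 12 vehicle group. The mean effective length of DPF1 transcripts ran from 927 to 2316 bases over the libraries, and the whole gene had 244 to 357 reads per group of 3 libraries. The SE of 0.17 bounds the size of change that could be called for DPF1.

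Ranked by TPM in day 6 vehicle, with SMARCB1 left out, the order was ACTL6A at 145, SMARCA4 at 139.9, SMARCC1 at 107, ACTL6B at 90.4, DPF2 at 65.3, ARID1A at 60.5, ARID1B at 59.6, SMARCA2 at 25.0 and DPF1 at 5.41. The libraries of ACTL6A and SMARCA4 overlapped, as did those of ARID1A and ARID1B, and the other neighbours did not. Under EPZ011989 at day 12, SMARCA4 led at 124 TPM, apart from ACTL6A at 97.9. ACTL6A then overlapped ACTL6B, at 90.5, which overlapped SMARCC1, at 76.8. The neuronal actin-like subunit stood beside the progenitor form in that group.

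Within each pair, the share of the second form was taken from TPM in each library, and the log2 ratio was tested by a two-sided exact permutation of treatment labels within day, with 4 pairs compared. ACTL6B made up 38.4% ± 2.47 of the ACTL6A and ACTL6B transcripts in day 6 vehicle and 39.7% ± 2.56 under EPZ011989 (SD, n = 3). At day 12 it made up 35.9, 36.6 and 35.7% in the vehicle libraries and 49.3, 49.4 and 45.2% in the treated ones. The day 12 groups are far apart and the day 6 groups overlap. The log2 ratio was 0.39 higher under EPZ011989 as the mean of both days (exact permutation p = 0.03, 0.12 after adjustment over 4 pairs, n = 3 per group and day), so it fails the correction. At day 12 alone the difference was 0.71, with an exact permutation p of 0.1, which is the smallest that 3 against 3 libraries can give. Between the day 12 groups the TPM of ACTL6A went from 137 ± 6.89 to 97.9 ± 3.10 and that of ACTL6B from 77.2 ± 4.76 to 90.5 ± 9.23 (SD, n = 3). In CPM, ACTL6B was level at day 12, with 59.0 ± 5.45 in vehicle and 58.9 ± 1.74 under EPZ011989 (SD, n = 3). Its mean effective length was 1130, 1214 and 1228 bases in vehicle and 1056, 1056 and 1235 under EPZ011989. The TPM sums also include transcripts with a retained intron. As a share of the pair's reads, ACTL6B held 34.4, 39.4 and 38.8% in vehicle and 45.7, 47.6 and 47.1% under EPZ011989.

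SMARCA2 made up 15.2% ± 1.32 of the ATPase pair in day 6 vehicle, 18.5% ± 4.56 under EPZ011989 at day 6, 19.5% ± 1.61 in day 12 vehicle and 20.8% ± 1.25 under EPZ011989 at day 12 (SD, n = 3). The difference in log2 ratio was 0.22 (exact permutation p = 0.12, adjusted 0.24). ARID1B made up 49.6% ± 1.73, 48.9% ± 3.07, 47.7% ± 6.56 and 50.4% ± 1.75 of its pair in the same order, so that the ARID genes were near parity throughout. Its log2 ratio differed by 0.06 (exact permutation p = 0.75, adjusted 0.75), and by -0.05 without replicate 1 of the day 12 vehicle group, where the share was 40.2%. DPF1 made up 7.61% ± 1.61, 8.34% ± 0.398, 7.48% ± 2.10 and 8.40% ± 4.07 of its pair, with a difference of 0.14 (exact permutation p = 0.59, adjusted 0.75), and of -0.06 without replicate 1 of the treated day 12 group. DPF1 was the minor form of its pair in all 12 libraries, at 5.13 to 13.1%. With 400 label arrangements the smallest p over both days is 0.005.

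**Figure D4:**
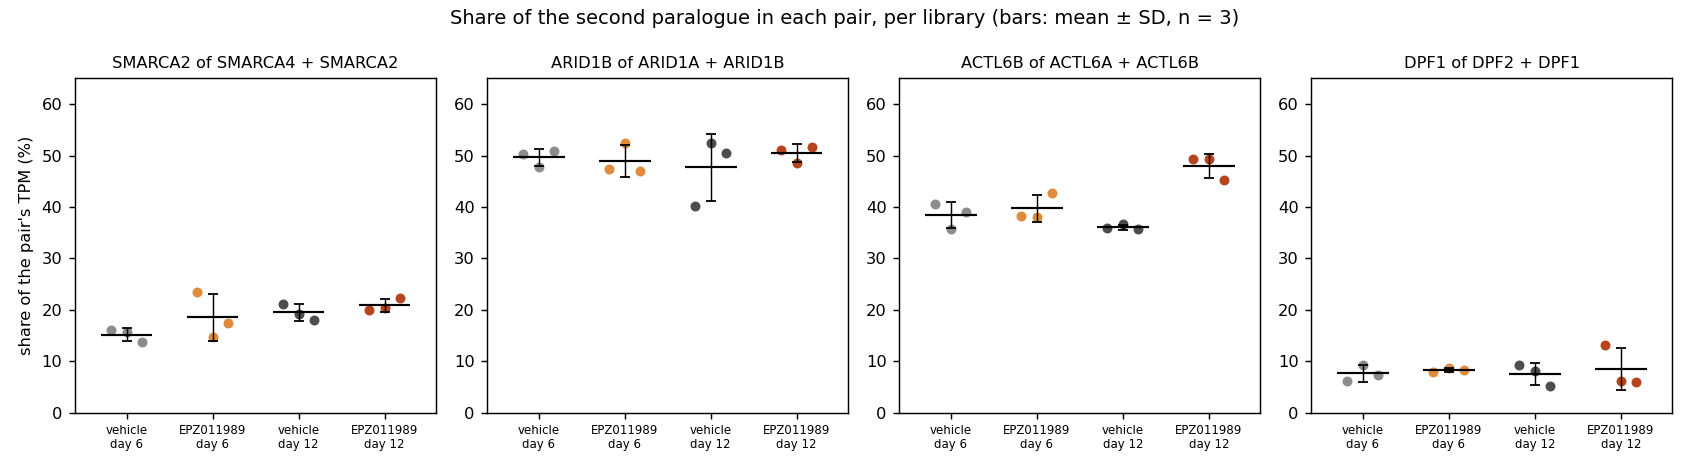
Share of the second form in the TPM of each pair (y axis, percent) in every library of the 4 groups (x axis), with the mean ± SD of 3 libraries. The ACTL6B share under EPZ011989 at day 12 lies at 45.2 to 49.4%, above the 9 other libraries, while the shares of the other 3 pairs overlap between treated and vehicle libraries on both days.

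Culture time alone was compared as well, with the same libraries that enter the treatment contrasts. In vehicle, 3 of the 10 were lower at day 12 than at day 6 and 0 higher, where 13.1% of all genes were called, 7.15% lower and 5.96% higher. These were SMARCA4 (log2 fold change -0.17, edgeR adjusted p = 0.0486), SMARCB1 in its summed part (-0.52, edgeR adjusted p = 0.0189) and ACTL6B (-0.23, edgeR adjusted p = 0.0368). In the authors' table SMARCB1 changed by -0.04 in vehicle (limma adjusted p = 0.805). Without replicate 1 of the day 12 vehicle group 0 of the 10 were called, and without replicate 2 or 3 of the day 6 vehicle group also 0. The share of all genes called without those libraries is not given. In the authors' table limma called 0 of the 10, where it called 1.33% of all genes. Under EPZ011989, 5 of the 10 were lower at day 12 than at day 6 and 2 higher, where 57.6% of all genes were called, 29.8% lower and 27.8% higher. The lower ones were SMARCC1 (-0.42, edgeR adjusted p = 3.46e-07), ACTL6A (-0.47, edgeR adjusted p = 2.1e-05), SMARCA4 (-0.19), ACTL6B (-0.18) and the summed part of SMARCB1 (-0.63). The higher ones were SMARCA2 (0.19, edgeR adjusted p = 0.0107) and DPF2 (0.14, edgeR adjusted p = 0.0439). In the authors' table limma called 3 of the 10, all lower, where it called 52.4% of all genes and 27.1% as lower. There SMARCB1 was at -0.32 (limma adjusted p = 0.00291).

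The 21 other SWI/SNF subunit genes on the list ran from -1.07 to 3.51 in log2 fold change at day 12, where the 10 genes ran from -0.68 to 0.31. At day 6, 3 were higher and 7 lower (median log2 fold change -0.02), where 34.2% of all tested genes were called, 17.1% higher and 17.0% lower. At day 12, 5 were higher and 12 lower (median -0.30), where 66.9% were called, 33.7% higher and 33.2% lower. With libraries scaled by their totals the day 12 counts were 8 higher and 11 lower, where 10025 of 15024 genes were called. SMARCD3 (BAF60c), the SMARCD form known from heart and neuronal development, rose most, from 1.10 ± 0.073 to 12.7 ± 0.685 CPM at day 12 (SD, n = 3), or 3.51 ± 0.31 on the log2 scale (edgeR adjusted p = 1.5e-07) after 2.03 at day 6. DPF3 (BAF45c), the other neuronal relative of DPF2, rose from 3.83 ± 0.699 to 16.0 ± 1.30 CPM, or 2.06 ± 0.17 on the log2 scale (edgeR adjusted p = 6.84e-08) after 0.92 at day 6. BCL11A, a zinc-finger subunit, rose by 1.40 ± 0.09 (edgeR adjusted p = 2.57e-09). BCL7C was the largest fall on the list, with -1.07 ± 0.14 (edgeR adjusted p = 1.25e-05).

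The progenitor forms PHF10 (BAF45a) and SS18 were lower at day 12. PHF10 went from 273 ± 27.2 to 161 ± 8.63 CPM (SD, n = 3), or -0.76 ± 0.06 on the log2 scale (edgeR adjusted p = 5.98e-08), and was -0.02 at day 6. SS18 went from 147 ± 5.87 to 89.2 ± 0.899 CPM, or -0.72 ± 0.05 on the log2 scale (edgeR adjusted p = 1.32e-08). SS18L1 (CREST), the neuronal partner of SS18, was at 109.7 ± 3.96 and 113 ± 4.06 CPM at day 12 (log2 fold change 0.04, edgeR adjusted p = 0.473) and fell by 0.18 at day 6 (edgeR adjusted p = 0.00721). SMARCC2 (BAF170), the partner of SMARCC1 in the core, fell by 0.46 at day 12 (edgeR adjusted p = 2.43e-06). SMARCD1 was at 0.0046 and BCL7A at 0.10, and neither was called. Of the progenitor and neuronal forms named here, then, ACTL6A, PHF10 and SS18 were called lower and DPF3 higher at day 12, while DPF2, ACTL6B, SS18L1 and DPF1 were not called. Falls were not particular to these forms, with SMARCC1 at -0.68, SMARCC2 at -0.46 and BCL7C at -1.07, while SMARCD3 and BCL11A rose. Of the 21 other subunits 12 were lower and 5 higher at day 12, where 33.2% of all tested genes were lower and 33.7% higher.

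**Figure D5:**
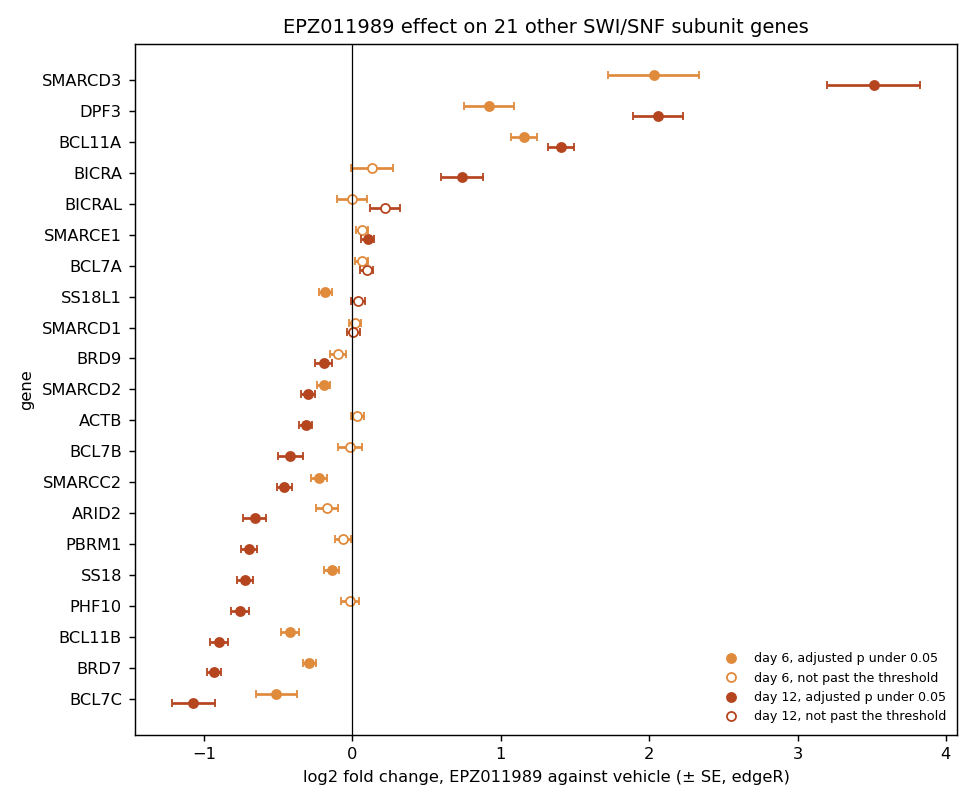
Log2 fold change of EPZ011989 against vehicle (x axis, ± SE, edgeR) for the 21 other SWI/SNF subunit genes (y axis, ordered by day 12) at both days, with filled points where the adjusted p was under 0.05. SMARCD3, DPF3 and BCL11A lie at 1.40 or above at day 12, and 12 genes are filled to the left of 0 at that day, where 33.2% of all tested genes were called lower.

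Beyond the SWI/SNF family, 22 subunits of other remodellers had 7 higher and 12 lower at day 12 (median -0.19) and 4 higher and 5 lower at day 6 (median 0.01). Of 13 neuronal genes 8 were higher and 5 lower at day 12 (median 0.93), and 4 were higher and 5 lower at day 6 (median 0.18). Both lists stand beside 66.9% of all tested genes called at day 12 and 34.2% at day 6. Across the 12 libraries, the genes whose log2 CPM ran closest to SMARCC1 were ANKRD28 (Pearson r = 0.997), JADE1 (0.996) and CLCN5 (0.995). For DPF1, whose rise was the largest of the 10 in the edgeR fit but was not called and was -0.05 in the authors' table, they were DHRS12 (0.875), ENSG00000249773 (0.830) and MGAT4B (0.807). These correlations are over the same 12 libraries in 4 groups and are a description only.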

How the data were processed

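PolyA-captured RNA of MKL-1 cells was sequenced in 12 libraries, 3 in each of 4 groups, grouped by title. The deposited per-library files hold the authors' estimated counts and TPM per transcript. The submitters' processing notes list Salmon 1.2.0, FastQC and DESeq2 as tools and hg38 as build. The authors' deposited gene table holds a normalized signal, with a method that no source used here gives. It was compared with summed reads for 11171 genes, after each gene's ratio was divided by its median over libraries. Of these values 99.3% lie within 2% of length-adjusted, size-factor scaled reads, and 35.8% without length adjustment. The genes were those whose length-adjusted reads were near the authors' level, a choice that favours the length-adjusted version.

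Transcripts were matched by identifier to GENCODE 29 (168219 of 179883, 93.5%). The rest held 3.08 to 3.58% of reads and were left out. Estimated counts were summed per gene and rounded. Genes were tested by edgeR's quasi-likelihood method (version 4.0.16, R 4.3.3), with filterByExpr and TMM, all 12 libraries in 1 fit, 15024 genes, two-sided, Benjamini-Hochberg adjusted p under 0.05. The SE is the log2 fold change over the square root of F. The authors' table was tested with limma 3.58.1 on log2(value + 1), for genes with a mean of at least 20. Pair ratios were tested by exact permutation over every arrangement of labels within day (Python 3.11.15, numpy 2.4.6). On simulated counts for 15024 genes, of which 200 were changed, the day 12 test recovered 83% of 2-fold and 99% of 4-fold changes. It made 11 false calls. The day 6 test recovered 88% and 97%, with 13 false calls. In the data far more genes were called, 10051 at day 12 and 5133 at day 6. The largest change among the genes chosen for description, -0.68 on the log2 scale (SMARCC1, day 12), was smaller than 2-fold. The simulated rates therefore do not give the recovery or false calls for such changes, which were not tested.

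Alternatives were DESeq2 1.42.0 size factors and its test, library totals, 2 other filters, the authors' table with pseudocounts of 1 and 5, transcript length as an offset, a block for replicate number, and each library left out in turn. The genes and lists were chosen with earlier results of these data known. Named beside the 10 were subunit genes fixed by symbol, those called at day 12 with a log2 change of at least 1, EZH2, MKI67, transcripts with at least 10% of a gene's reads, and the 3 genes most like the largest rise and fall. Replicates differed beyond sampling noise (chi-square per degree of freedom 4.10 to 16.0). The own level of a leukocyte marker in the fixed list is not reported here.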

Additional observations from a re-analysis of the deposited data

Results flagged for a closer look

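The EPZ011989 effect differed between the days for ACTL6A, by -0.45 on the log2 scale (day 12 minus day 6, edgeR adjusted p = 9.14e-04), and for SMARCC1, by -0.44 (edgeR adjusted p = 1.18e-05). Both were picked out because the difference itself passed the test. In CPM all 3 treated day 12 libraries of each gene lay below the other 9 libraries. In the authors' table the same differences were -0.42 (limma adjusted p = 0.00741) and -0.43 (limma adjusted p = 9.33e-04). The proliferation list, whose 20 genes all differed between the days in the same direction with a median of -1.73, moved with both, and its part was not tested. Among all tested genes the effect differed between the days for 47.7%, with 25.1% lower at day 12.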

How the results depend on the processing

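The day 12 count of 5 stayed within 4 to 6 under every alternative and at 5 without each library in turn, and the count of 2 that differed between the days ran from 2 to 3. The day 6 count of 4 was 2 with library totals and with the stricter filter, and 2 to 4 without each library. The vehicle time count of 3 was 0 in the authors' table with either pseudocount and with the length offset, and 0 to 3 without each library. Under EPZ011989 the time count of 7 was 3, 3 and 4 in those settings and 4 to 8 without each library. The other subunits' day 6 count of 10 was 4 in those 3 settings and 6 to 10 without each library. Their day 12 count of 17 ran from 16 to 19 without each library. The share of all genes called also moved with the setting. In vehicle over time it was 13.1% in edgeR and 1.33% in limma on the authors' table (pseudocount 1). Under EPZ011989 over time it was 57.6% and 52.4%, and for treatment at day 6 it was 34.2% and 26.1%. With library totals 4874 of 15024 genes were called at day 6. For other settings and for left-out libraries no share is given, so those counts are a description only. The cause of these differences was not tested.

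Changes that were not called turned sign. SMARCA2 at day 6 was 0.13, 0.13 and 0.19 in the authors' table (pseudocounts 1 and 5) and with the length offset, DPF1 at day 6 was 0.088, 0.083 and 0.086 and at day 12 -0.047, -0.045 and -0.030, and ACTL6B at day 12 was 0.12, 0.12 and 0.12. SMARCB1 at day 6 was -0.024 with both pseudocounts. With DESeq2 size factors, library totals, the stricter filter and the DESeq2 test, SMARCA2 at day 12 was 0.0046, 0.065, 0.041 and 0.0043, and ACTL6B 0.0060, 0.066, 0.042 and 0.0054. Without each library, SMARCA2 ran from -0.032 to 0.059 and ACTL6B from -0.078 to 0.052 at day 12, and SMARCB1 from -0.11 to 0.14 and DPF1 from -0.26 to 0.051 at day 6. With the authors' table less replicate 1 of the day 12 vehicle group, an alternative chosen after seeing the data, SMARCA2 at day 12 was 0.037 and ACTL6B 0.076, and SMARCA2, SMARCB1 and DPF1 at day 6 kept the turned sign. There the time counts were 0 in vehicle and 3 under EPZ011989, and the other subunits' day 6 count 6. Library totals moved the median of all genes at day 12 from 0.02 to 0.09.

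The log2 pair ratios ran, without each library, from 0.11 to 0.32 (SMARCA2), -0.049 to 0.13 (ARID1B), 0.35 to 0.43 (ACTL6B) and -0.061 to 0.25 (DPF1). With the replicate block their adjusted p were 0.438, 0.719, 0.25 and 0.5. The replicate number did not pair the samples (correlations of same-numbered deviations -0.046 to 0.054). With that block 4 of the 10 genes were called at day 6 and 5 at day 12, 2 between days, 3 in vehicle and 6 under EPZ011989 over time, and 10 and 17 other subunits. The share of all genes called with the block is not given, so these counts are a description only.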
